A study of Sus scrofa with 5 samples.

Results

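The cells described here were the XCR1+ dendritic cells of the neonatal pig cecum, called the cDC1 gate. A cell barcode was a member when it held at least 200 genes, at least 2 molecules (UMIs) of XCR1 and CLEC9A together, at least 2 UMIs of the class II gene SLA-DRA and 0 UMIs of the B cell gene MS4A1. The members were thus chosen by their measured counts of XCR1, CLEC9A, SLA-DRA and MS4A1, and values of these genes are given as a description only. The rule found 425 members among 72701 barcodes with at least 200 genes, which were 2 cells at d0, 28 at d1, 13 at d7, 296 at d14 and 86 at d21. The study profiled the cecum of male piglets by droplet single-cell RNA-seq on the day of birth (d0) and at 1, 7, 14 and 21 days of age (d1, d7, d14 and d21). The piglets were Large White, born at term and fed on maternal milk alone, without antibiotics or immunization. Cells were released from scraped mucosa with EDTA and a short trypsin step, and the cells of 5 piglets were mixed into 1 library per age. No replicate therefore existed at any age, no test between ages was possible, and the intervals given with shares and levels cover counting error only.

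Conventional dendritic cells of the first type (cDC1) take up dead cells and present their antigens on MHC class I to CD8 T cells, which is called cross-presentation. XCR1 is the receptor for the chemokine XCL1, which activated T and NK cells release. CLEC9A binds actin filaments exposed by dead cells, CADM1 is an adhesion molecule that binds CRTAM on lymphocytes, and FLT3 is the receptor for the growth factor that maintains dendritic cells. The transcription factors IRF8 and BATF3 drive the development of this lineage. In the gut, cDC1 sit in the lamina propria below the epithelium and carry antigen to the draining lymph nodes after they switch on CCR7.

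The libraries held 15218, 14142, 10272, 16177 and 16892 barcodes with at least 200 genes from d0 to d21, with 83394038, 80196009, 47921183, 91863866 and 69522315 counts. The median barcode held 2859, 3005, 2340, 4121 and 2587 UMIs, and mitochondrial genes took 23.7%, 11%, 8.95%, 5.51% and 7.94% of counts. The d0 library stood apart by its mitochondrial share. Cells with at least 2 UMIs of the epithelial genes EPCAM and KRT8 and 0 of SLA-DRA were 9849 at d0, 5663 at d1, 771 at d7, 175 at d14 and 1022 at d21, so the epithelium that defines the scraped mucosa was present in each library but was scarce at d14. Between libraries 566 barcodes were shared, and 0 of them were members in both libraries.

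Members were deeper than the cells around them. Their median UMI count was 8384 at d0, 5970 at d1, 10943 at d7, 11447 at d14 and 9553 at d21, which was between 1.99 and 4.68 times the median of their own library. The rule itself asks for 4 UMIs of its genes and so favours deep barcodes. Mitochondrial genes took 4.79%, 8.83%, 6.05%, 5.18% and 5.52% of member counts, so the high mitochondrial share of the d0 library was not seen in its 2 members.

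Membership rested on XCR1 almost alone. XCR1 (Sscrofa11.1 chr13:29150376-29233802) gave 2343 UMIs in the members and CLEC9A (chr5:61876050-61885307) gave 8. Of the 425 members, 418 had XCR1 without CLEC9A, 7 had both and 0 had CLEC9A without XCR1. The median member held 4 XCR1 UMIs and the highest held 19. CLEC9A is a defining marker of cDC1, and it was at 0 at d0 and d1 and at levels of 0.132, 0.0114 and 0.0251 per 10000 counts at d7, d14 and d21. Here and below, a level is the summed UMIs of a gene over the cells of a gate, per 10000 summed counts of that gate.

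XCR1 was also found outside the members. The members held 16.7%, 72.7%, 45%, 90.6% and 74.4% of each library's XCR1 UMIs from d0 to d21, so at d0 and d7 most XCR1 UMIs lay in other cells. Among T cells without SLA-DRA, which should lack the gene, at most 0.496% per library had an XCR1 UMI and none had 2. Among SLA-DRA+ MS4A1- cells with FCN1, a monocyte gene, 0%, 7.89%, 6.06%, 3.54% and 2.58% had an XCR1 UMI from d0 to d21. Members were not taken out of these FCN1 cells. From d0 to d21, 0, 1, 2, 12 and 1 of them had at least 2 UMIs of XCR1 and CLEC9A together and were members. Just inside the threshold were 88 members with exactly 2 UMIs, at a median depth of 6477 UMIs, and just outside were 233 SLA-DRA+ MS4A1- cells with exactly 1 UMI, at a median depth of 7668. The CADM1 level was 2.06 just inside, 0.731 just outside and 3.43 in the 337 members with at least 3 UMIs. The level of BATF3 was 6.19, 2.07 and 10.2 in the same order. Cells at the edge of the rule thus lay between the rest of the members and the cells outside.

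The other defining markers were present. CADM1 (chr9:42644487-42984934) had a UMI in 81.9% of members and in 0.638% of T cells, at median depths of 10603 and 3682 UMIs. IRF8 (chr6:3041617-3060685) had one in 98.1% of members and BATF3 (chr9:130699092-130711719) in 87.8%, against 17.1% and 13.6% of T cells. WDFY4, which is needed for cross-presentation of cell-borne antigen, had one in 82.8% against 0.513%. FLT3 (chr11:5370475-5455439) had one in 59.3% against 0.262%. THBD, an endothelial and cDC1 surface protein, and TLR3, the sensor of double-stranded RNA, were found in only 21.6% and 14.1% of members. Of these genes, which the rule did not use, CADM1, IRF8, BATF3 and WDFY4 were thus widespread in members, while THBD and TLR3 were not. FLT3 lay between and varied with age, with a UMI in 64.5% of members at d14 and 44.2% at d21. In members with at least 5000 UMIs, each thinned to 5000, these shares were 43.0% and 30.0%.

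The share of members among all kept cells was highest at d14. It was 0.0131% (exact Clopper-Pearson 95% interval 0.00159 to 0.0475) at d0, 0.198% (0.132 to 0.286) at d1, 0.127% (0.0674 to 0.216) at d7, 1.83% (1.63 to 2.05) at d14 and 0.509% (0.407 to 0.628) at d21. The intervals of d1 and d7 overlapped, and those of d0, d14 and d21 overlapped with no other age. The d21 share was 38.7 times the d0 share, a log2 ratio of 5.28 (3.38 to 8.34) that rests on 2 members at d0. Among SLA-DRA+ MS4A1- cells, the pool from which members come, the shares were 0.494% (0.0599 to 1.77), 1.30% (0.869 to 1.88), 0.929% (0.495 to 1.58), 5.14% (4.58 to 5.74) and 2.98% (2.39 to 3.67). The order of the ages was the same, but the d21 over d0 log2 ratio was 2.59 and the intervals of d0, d1 and d7 all overlapped.

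The d14 share stayed highest when depth was made equal. With each cell thinned to 5000 UMIs and shallower cells left out, members were 0 of 5314 cells at d0, with an exact interval up to 0.0694%. They were 0.308% (0.164 to 0.527) of 4215 cells at d1, 0.384% (0.184 to 0.705) of 2605 at d7, 2.67% (2.30 to 3.09) of 6701 at d14 and 0.844% (0.595 to 1.16) of 4386 at d21. Cells of the C1Q gate were also most frequent at d14, but their order of ages was another. The C1Q cells (at least 5 UMIs of C1QA, C1QB and C1QC, which mark macrophages, with 0 of XCR1 and CLEC9A) were 0.355%, 2.76%, 0.818%, 6.62% and 0.539% of kept cells, so at d21 there were 86 members beside 91 C1Q cells while at d14 there were 296 beside 1071. At d1 the 28 members stood beside 390 C1Q cells. Shares of kept cells depend on how many epithelial cells and T cells each preparation gave, and age, preparation and library cannot be told apart.

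**Figure D1:**
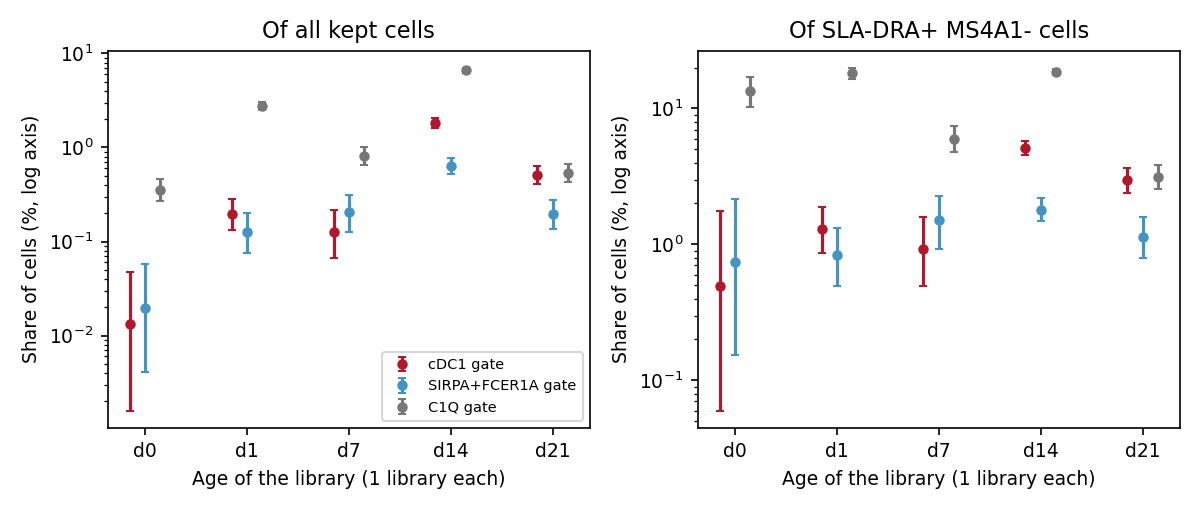
Share of cells (%, log axis) in the cDC1 gate, the SIRPA+FCER1A gate and the C1Q gate in the 1 library of each age, among all kept cells (left) and among SLA-DRA+ MS4A1- cells (right); points are shares and bars exact 95% binomial intervals. The cDC1 gate peaked at d14, at 1.83% and 5.14%, and at d21 its share lay beside that of the C1Q gate.

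To see which genes set the members apart from other SLA-DRA+ cells in every library, summed counts of the members were compared with those of 2 reference gates. The first was the SIRPA+FCER1A gate (SLA-DRA of at least 2 UMIs, SIRPA and FCER1A together at least 2, and 0 of MS4A1, XCR1, CLEC9A, C1Q, FCN1, MS4A2 and HDC), whose genes mark the second type of conventional dendritic cell. It held 179 cells, 3, 18, 21, 104 and 33 from d0 to d21. The second was the C1Q gate, with 1690 cells. Each comparison used the 4 libraries from d1 to d21, which had at least 10 cells in both gates, with the library as a block in edgeR's quasi-likelihood test and Benjamini-Hochberg adjustment. The spread between these libraries includes their age. The comparisons share the members' sums.

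The SIRPA+FCER1A gate was a mixed population. In it 72 of 179 cells (40.2%) carried UMIs of T cell, epithelial, B cell or plasma cell markers, against 109 of 425 members (25.6%) and 377 of 1690 C1Q cells (22.3%). Its 4 cells above 50000 UMIs took much of its counts, and the deepest cell alone gave 33.0% of the gate's counts at d21 and 13.8% at d14. Against the SIRPA+FCER1A gate 331 of 3516 genes (9.41%) passed at an adjusted p under 0.05, 217 (6.17%) higher and 114 (3.24%) lower in members. Without the reference cells above 50000 UMIs 169 genes passed, and without those with markers of other types 122 passed. With 1 library left out, 71 passed without d14, 90 without d21 and 525 without d7. Against the C1Q gate 1241 of 6697 genes (18.5%) passed, 471 (7.03%) higher and 770 (11.5%) lower, and 453 passed without d14.

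Genes that mark cDC1 in other species were higher in the members against both gates. Of 26 such genes listed, 25 were in the matrices and BTLA and CPVL were at 0 in members. Against the SIRPA+FCER1A gate 11 of 14 tested were higher and 0 lower, beside 6.17% and 3.24% of all genes. Their median log2 fold was 2.46 against 0.00115 over all genes tested. Against the C1Q gate 13 of 17 were higher and 0 lower, beside 7.03% and 11.5% of all genes, with a median of 1.84 against -0.0335. In every alternative run, at least 8 were higher and 0 lower against the SIRPA+FCER1A gate. IRF8 and BATF3, the paired factors of the lineage, had the largest log2 folds of the listed transcription factors against the SIRPA+FCER1A gate, while against the C1Q gate BCL11A (2.97) and ZNF366 (2.90) had larger ones. IRF8 had levels of 7.79, 10.1, 11.9 and 10.6 in members from d1 to d21 and of 0.937, 2.09, 1.04 and 0.550 in the SIRPA+FCER1A gate, so the groups were far apart in each library. It was higher by a log2 fold of 3.30 ± 0.33 (SE, adjusted p = 0.000881), and by 2.47 ± 0.23 against the C1Q gate (adjusted p = 5.28e-05).

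BATF3 had levels of 4.64, 8.94, 10.6 and 6.61 in members against 0.562, 1.60, 0.808 and 0.244 in the SIRPA+FCER1A gate. It was higher by a log2 fold of 3.50 ± 0.36 (edgeR adjusted p = 0.00102) and by 2.79 ± 0.26 against the C1Q gate (adjusted p = 4.7e-05). ZNF366, a factor of conventional dendritic cells, and BCL6, a repressor also used by cDC1, were higher against both gates as well, with log2 folds of 2.25 and 1.84 against the SIRPA+FCER1A gate. NFIL3, which acts upstream in cDC1 development, was lower, by log2 folds of -1.67 ± 0.33 (adjusted p = 0.0179) and -1.40 ± 0.30 (adjusted p = 0.00802). ID2, an inhibitor that cDC1 need and that many lymphocytes express, had levels of 9.13, 11.5, 12 and 14.9 in members and 6.69, 12.8, 11.1 and 9.96 in the SIRPA+FCER1A gate. Its ranges overlapped there and the difference of 0.25 did not pass (adjusted p = 0.468). Among the 14 transcription factors listed, 4 of 10 tested were higher and 1 lower against the SIRPA+FCER1A gate, beside 6.17% and 3.24% of all genes. Against the C1Q gate 7 of 13 were higher and 1 lower, beside 7.03% and 11.5% of all genes.

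Of the surface markers, CADM1 was higher against both gates and FLT3 against the C1Q gate. CADM1 had levels of 3.15, 2.98, 3.34 and 2.80 in members against 0.25, 0, 0.128 and 0.0306 in the SIRPA+FCER1A gate and 0.759, 0.363, 0.718 and 0.563 in the C1Q gate. All 4 member levels were above all 8 reference levels, with log2 folds of 4.93 ± 0.43 (edgeR adjusted p = 0.000663) and 2.26 ± 0.19 (adjusted p = 2.67e-05). FLT3 had levels of 1.39, 1.26, 1.19 and 0.702 in members and 0.750, 0.802, 1.18 and 0.458 in the SIRPA+FCER1A gate. The ranges overlapped, although members were higher in 4 of 4 libraries, and the log2 fold of 0.45 ± 0.23 did not pass (adjusted p = 0.285). In the C1Q gate the FLT3 levels were 0.0619, 0.151, 0.104 and 0.193, all below the members, with a log2 fold of 3.27 ± 0.33 (adjusted p = 7.98e-05). FLT3 thus set the members apart from C1Q cells, while a difference from the SIRPA+FCER1A gate was not detectable over 4 libraries.

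**Figure D2:**
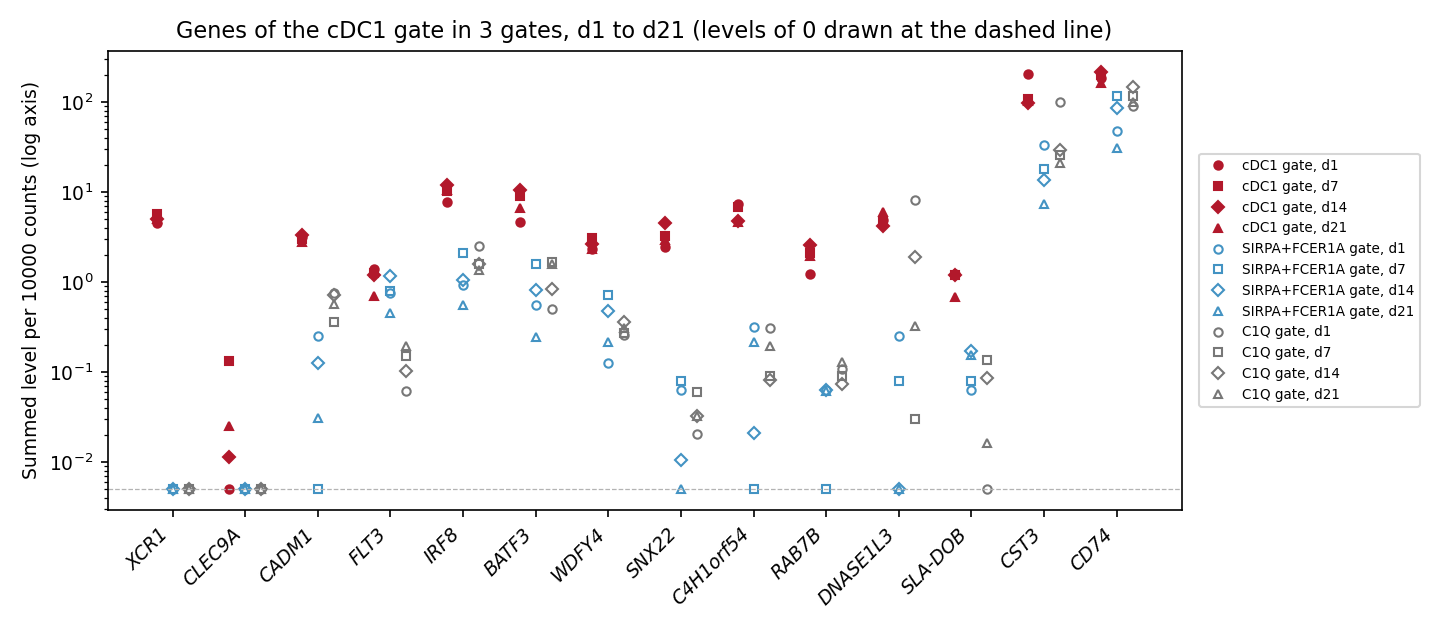
Summed level per 10000 counts (log axis) of 14 genes in the cDC1 gate, the SIRPA+FCER1A gate and the C1Q gate, 1 symbol per library from d1 to d21; levels of 0 are drawn at the dashed line. XCR1 and CLEC9A are 0 in both reference gates by the gate rule; for CADM1 all 4 member levels lie above all reference levels, while for FLT3 the members and the SIRPA+FCER1A gate overlap.

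SNX22, RAB7B, C4H1orf54, XIRP2 and ZBED2 were scarce in both reference gates. SNX22 (chr1:107891698-107897561), a sorting nexin, had levels of 2.48, 3.24, 4.55 and 2.91 in members, from 1933 UMIs, against 3 UMIs in the SIRPA+FCER1A gate, a ratio of 214 (counting interval 73.2 to 1040). Against the C1Q gate its log2 fold was 6.73 ± 0.26 (edgeR adjusted p = 1.04e-06). ZBED2 (chr13:148156510-148158769), a zinc finger factor, had levels of 0.722, 1.26, 1.11 and 0.790 in members and was at 0 in the 4 libraries of the SIRPA+FCER1A gate, so it was at least 54-fold higher, taking 3 counts over that group as the floor. Both genes were above their reference level in each of the 4 libraries.

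C4H1orf54 (chr4:98806352-98814627), an open reading frame known as a cDC1 transcript, had levels of 7.43, 6.88, 4.76 and 4.69 in members against 0.312, 0, 0.0213 and 0.214 in the SIRPA+FCER1A gate (log2 fold 5.70 ± 0.56, edgeR adjusted p = 0.000881). RAB7B (chr9:66635636-66666034), a small GTPase of late endosomes, was higher by 5.30 ± 0.36 (adjusted p = 0.000445). XIRP2 (chr15:73665876-73741046), better known as an actin-binding protein of muscle, had levels of 1.19, 1.19, 1.77 and 1.27 in members against 0.0625, 0.0802, 0.0532 and 0.0306, and was higher by 4.88 ± 0.34 (adjusted p = 0.000445) and by 6.91 ± 0.38 against the C1Q gate (adjusted p = 5.93e-06). The remaining higher genes of largest fold against the SIRPA+FCER1A gate were DNASE1L3, a DNase secreted by dendritic cells and macrophages (6.94), CADM1, ANPEP, a surface aminopeptidase (4.44), KCNA3, a potassium channel (3.97), and RAMP1, a receptor partner for the neuropeptide CGRP (3.70). DNASE1L3 did not pass against the C1Q gate, which held levels of 8.12, 0.0303, 1.91 and 0.322 against 4.90, 4.70, 4.16 and 5.97 in members (log2 fold 2.03 ± 0.87, adjusted p = 0.149). ANPEP is also an enterocyte gene, with a level of 2.18 in all other cells at d1, beside 2.68 in members and 0.562 in the SIRPA+FCER1A gate.

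Against the C1Q gate, the list of higher genes of largest fold also held SLA-DOB, a class II regulator (log2 fold 4.16), APLF, a DNA repair factor (3.39), and ARHGAP18 (3.02). CST3, a cathepsin inhibitor that is abundant in cDC1, had the highest level of the cDC1 genes, with 206, 109, 96.3 and 103 in members against 33.0, 18.2, 13.5 and 7.30 in the SIRPA+FCER1A gate and 101, 25.7, 29.5 and 20.8 in the C1Q gate. It was higher by 2.96 ± 0.24 (edgeR adjusted p = 0.000566) and 1.70 ± 0.18 (adjusted p = 0.000116), and was above the reference in each library.

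Parts of the class I antigen route were higher in members. Of 18 tested genes of the MHC class I route, 5 were higher and 0 lower against the SIRPA+FCER1A gate (median log2 fold 0.36). The shares of all genes were 6.17% and 3.24%. Of 20 tested 6 were higher and 2 lower against the C1Q gate (median -0.08), beside 7.03% and 11.5% of all genes. TAP1, which pumps peptides to class I molecules, had levels of 1.39, 2.25, 2.86 and 2.50 in members against 0.5, 0.882, 0.713 and 0.795 in the SIRPA+FCER1A gate and 0.355, 0.969, 0.939 and 1.08 in the C1Q gate. Its log2 folds were 1.70 ± 0.23 (edgeR adjusted p = 0.00348) and 1.42 ± 0.18 (adjusted p = 0.000318). Its partner TAP2, the immunoproteasome subunits PSMB8 and PSMB9, and the class I gene SLA-6 were higher against both gates, by log2 folds from 1.00 to 1.34 against the SIRPA+FCER1A gate. Without the reference cells carrying markers of other types, 2 of 18 passed, and without the d14 library 1 of 18 passed. SLA genes have near-identical copies and alleles between which the counting could split reads, so their counts are uncertain.

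Genes of the cross-presentation machinery were found in both directions against the C1Q gate. Of 8 tested against the SIRPA+FCER1A gate 2 were higher and 0 lower, beside 6.17% and 3.24% of all genes. Of 14 tested against the C1Q gate 3 were higher and 5 lower, beside 7.03% and 11.5%. WDFY4 (chr14:89353362-89632722) had levels of 2.32, 3.11, 2.62 and 2.33 in members against 0.125, 0.722, 0.479 and 0.214 in the SIRPA+FCER1A gate (log2 fold 2.84 ± 0.31, edgeR adjusted p = 0.00127) and 0.256, 0.273, 0.356 and 0.306 in the C1Q gate (3.00 ± 0.18, adjusted p = 7.48e-06). SEC61B, a subunit of the translocon proposed to move antigen into the cytosol, was higher against the C1Q gate (0.55 ± 0.16, adjusted p = 0.0376) and did not pass against the other (0.60 ± 0.20, adjusted p = 0.121).

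The class II route was split between presentation genes and proteases. Of 14 tested genes 8 were higher and 1 lower against the SIRPA+FCER1A gate, beside 6.17% and 3.24% of all genes. Against the C1Q gate 7 of the 14 were higher and 5 lower, beside 7.03% and 11.5% of all genes. The invariant chain CD74 had levels of 186, 199, 217 and 161 in members against 47.6, 116, 85.6 and 30.8 in the SIRPA+FCER1A gate and 90.4, 117, 147 and 101 in the C1Q gate. It was higher by 1.62 ± 0.25 (edgeR adjusted p = 0.00608) and 0.68 ± 0.08 (adjusted p = 0.000173). The beta chain SLA-DRB1 was higher by 2.07 ± 0.26 (adjusted p = 0.00258) and 0.86 ± 0.08 (adjusted p = 6.12e-05). The lysosomal proteases CTSD and CTSS were lower than in the C1Q gate, by log2 folds of -3.58 ± 0.22 (adjusted p = 7.48e-06) and -1.64 ± 0.15 (adjusted p = 5.15e-05). SLA-DRA is part of all 3 gate rules, and genes regulated with it are not independent of them.

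The cytokine and chemokine genes of highest level in members were CCL5, CXCL16 and CXCL10, with 3967, 1469 and 1307 UMIs. CCL5 is abundant in T cells, and its level was 8.47 in members, 15.4 in the SIRPA+FCER1A gate and 12.5 in the C1Q gate. From d1 to d21 a CCL5 UMI was found in 0%, 53.8%, 68.9% and 97.7% of members, below the 45%, 78.9%, 82.7% and 99.1% of T cells at each age, and so it was not read as expression by members. IL12B, the subunit of the cytokine IL-12 that cDC1 can make, had 0 UMIs in the 4682417 counts of the members, and IL12A had 2 and IL15 had 2. Of 9 tested cytokine and chemokine genes 4 were higher and 1 lower against the SIRPA+FCER1A gate, beside 6.17% and 3.24% of all genes. Of 14 tested 0 were higher and 5 lower against the C1Q gate, beside 7.03% and 11.5% of all genes. The 4 higher were CXCL9 (log2 fold 2.63 ± 0.57, edgeR adjusted p = 0.0257) and CXCL10 (1.71 ± 0.42, adjusted p = 0.0391), which attract T cells, CXCL16 (1.63 ± 0.23, adjusted p = 0.00409) and EBI3 (1.95 ± 0.40, adjusted p = 0.0194). At d7 CXCL10 was lower in members, at 0.0662 from 1 UMI against 0.321 in the SIRPA+FCER1A gate. A CXCL9 UMI was found in 32 of 425 members, and at d7 all 17 of its UMIs lay in 1 cell. None of the 9 passed without the reference cells carrying markers of other types. CXCL10 was lower than in the C1Q gate, in each of the 4 libraries, by a log2 fold of -2.06 (adjusted p = 0.0411), and so were IL1B, CXCL8, CCL2 and IL10, by -3.40, -3.60, -3.72 and -2.76. IL18BP, the decoy receptor that neutralizes IL-18, was higher by 2.40 ± 0.34 against the SIRPA+FCER1A gate (adjusted p = 0.00436) and by 2.16 ± 0.49 against the C1Q gate (adjusted p = 0.0116), where it was higher in 3 of 4 libraries.

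Interferon-response genes were lower than in the C1Q gate. Of 22 tested 1 was higher and 13 were lower, beside 7.03% and 11.5% of all genes, with a median log2 fold of -1.02. Against the SIRPA+FCER1A gate 1 of 12 was higher and 1 lower, beside 6.17% and 3.24% of all genes. Without the library block 0 were higher and 3 lower against the C1Q gate, and without the d14 library 0 were higher and 4 lower. IFI6, an interferon-induced mitochondrial protein, had levels of 1.96, 2.32, 3.82 and 7.92 in members, 7.37, 17.4, 10.3 and 33.5 in the SIRPA+FCER1A gate and 7.50, 40.4, 49.1 and 55.7 in the C1Q gate, and was lower by -2.05 ± 0.25 (edgeR adjusted p = 0.00246) and -3.24 ± 0.29 (adjusted p = 4.63e-05). It was lower in members in each of the 4 libraries and against both gates. Of 13 tested genes of pattern sensing 1 was higher and 8 were lower against the C1Q gate, beside 7.03% and 11.5% of all genes. Of the integrin and homing genes, ITGB7, the beta chain of the gut homing integrin and partner of CD103, was higher by 1.72 ± 0.26 (adjusted p = 0.00608) and 1.34 ± 0.16 (adjusted p = 0.000282). In the C1Q comparison ITGAE was also higher (1.16, edgeR adjusted p = 0.0265), while CX3CR1 (-3.88, adjusted p = 0.000317) and CCR7 (-1.46, adjusted p = 0.0258) were lower. The other tested genes of this list passed against neither gate.

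The C1Q gate was chosen on macrophage genes, and genes of macrophages outside its rule were lower in members. Against the C1Q gate 11 of 13 tested macrophage genes were lower and 0 higher, beside 11.5% and 7.03% of all genes, with a median log2 fold of -3.83. CSF1R, the receptor that maintains macrophages, had levels of 0.258, 0, 0.343 and 0.276 in members against 5.87, 5.66, 9.07 and 5.28 in the C1Q gate (-4.77 ± 0.31, edgeR adjusted p = 7.76e-06) and 1.00, 2.49, 2.80 and 1.47 in the SIRPA+FCER1A gate (-2.89 ± 0.41, adjusted p = 0.00463). The lower genes of largest fold against the C1Q gate were CD1.1, MS4A7, C5AR1, CD163, SAA3, HPGD, ACP5, CSF1R, NPL and NUPR1, with log2 folds from -6.70 to -4.48. The scavenger receptor CD163 was at 0, 0, 0.0653 and 0.0251 in members against 2.70, 1.06, 2.57 and 0.402. Against the SIRPA+FCER1A gate the lower genes of largest fold were FCN2, PI3, LGALS2, LST1, CDC42EP5, CSF1R, LGALS4, ETS2, APP and LMNA. Over 16 alternatives PI3 kept its call in 4 and lost it in 8, LGALS4 lost it in 5, and CDC42EP5 and ETS2 lost it in 3 each. FCN2 and LGALS2 lost it in 2 each, and APP and LMNA in 1 each. Some alternatives did not test the gene, 6 for APP, 4 each for PI3 and LGALS2, 3 for FCN2, 2 for CDC42EP5 and 1 for LMNA. CSF1R and LST1 kept the call in all 16. LST1, a myeloid leukocyte gene, was lower in each library with levels of 0.155, 0.132, 0.210 and 0.15 against 1.12, 1.76, 2.54 and 0.795 (-3.17 ± 0.29, edgeR adjusted p = 0.000797). LGALS4, an epithelial galectin, turned to 0.47 (adjusted p = 0.857) without the reference cells carrying markers of other types.

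**Figure D3:**
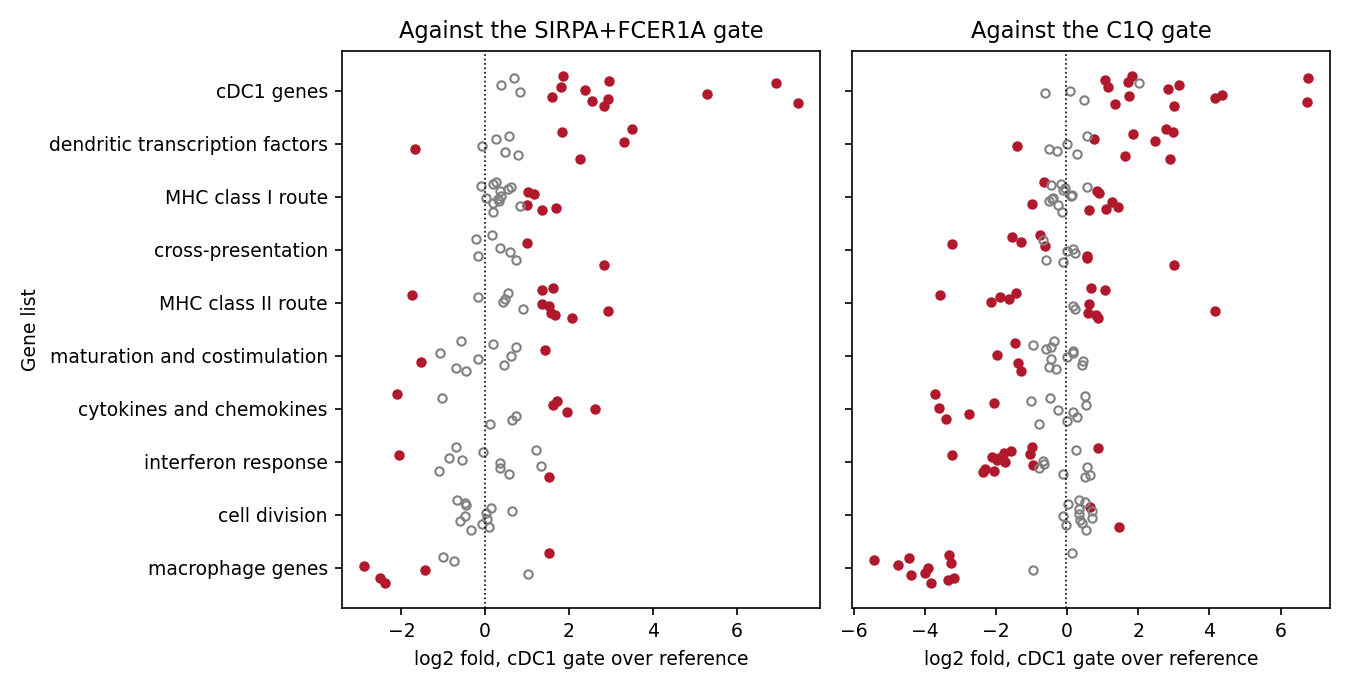
log2 fold of the cDC1 gate over the SIRPA+FCER1A gate (left) and over the C1Q gate (right) for the tested genes of 10 lists, each point a gene; filled points had an edgeR adjusted p under 0.05 over 4 libraries. The tested cDC1 genes that passed are all higher, 11 and 13 of them, beside 6.17% and 7.03% of all genes. Against the C1Q gate 11 of 13 macrophage genes are lower, beside 11.5% of all genes.

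Transcripts of other cell types were present among the members at levels that changed with age. The summed level of 9 epithelial genes was 2.39, 20.8, 1.32, 0.295 and 5.04 from d0 to d21, with KRT8 the most abundant over all members, beside 20.1 in the whole SIRPA+FCER1A gate. The 11 T cell genes summed to 10.1, 0.206, 1.26, 2.64 and 2.48, with CD3E the most abundant. The 9 B and plasma cell genes summed to 0, 0.0516, 0.463, 6.02 and 0.777, with JCHAIN giving 5.57 of the sum at d14 and 0.0662 at d7, and CD79A at 0. The 10 stromal and endothelial genes summed to 1.79, 7.74, 1.26, 7.31 and 4.58, and the 19 macrophage genes to 13.7, 22.8, 18.5, 22.7 and 21.3, mostly AIF1, against 240 in the C1Q gate. The d1 members thus carried the most epithelial RNA. At d14 1 member held 55.7% of the JCHAIN UMIs, and the level was 2.48 without it, while at least 2 plasma cell UMIs were found in 13.2% of members at d14 and 16.3% at d21.

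At least 2 UMIs of another type's markers were found in 124 of 425 members (29.2%). At d1 it was 13 of 28, all with EPCAM or KRT8, at d14 80 of 296 and at d21 28 of 86. Over all members 54 carried plasma cell UMIs, 49 T cell UMIs, 18 C1Q UMIs, 18 epithelial UMIs and 1 B cell UMIs. Whether these were doublets, free RNA or engulfed cells was not tested. With such members left out, 323 genes passed against the SIRPA+FCER1A gate and 1179 against the C1Q gate.

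A part of the members was dividing. At least 2 UMIs of MKI67, TOP2A and CENPF, which are made in cycling cells, were found in 73 of 425 members (17.2%, 13.7 to 21.1), against 8.38% of the SIRPA+FCER1A gate and 8.22% of the C1Q gate, at median depths of 10603, 5432 and 6256 UMIs. By age they were 2 of 2 at d0, 0 of 28 at d1, 3 of 13 at d7, 51 of 296 (17.2%) at d14 and 17 of 86 (19.8%) at d21. The shares at d14 and d21 lay within each other's counting error, the members at d1 were the shallowest, and the difference in depth between the gates was not removed. Over the whole gate, 0 of 12 tested cell division genes differed from the SIRPA+FCER1A gate at an adjusted p under 0.05, beside 9.41% of all genes. Against the C1Q gate 2 of 14 were higher, beside 7.03% of all genes. Both counts lay near these shares and were not read as a result about the list. Dividing members had levels of 17.0 for HMGB2 and 7.51 for STMN1, both cell cycle genes, against 2.31 and 1.08 in the other members. At d14, the age with most dividing members, the levels in dividing and other members were 10.7 and 10.6 for BATF3, 3.30 and 4.93 for SNX22, 3.19 and 5.23 for C4H1orf54 and 70.9 and 104 for CST3. At d21 they were 6.96 and 6.49, 2.89 and 2.91, 4.51 and 4.75, and 118 and 98.1 in the same order. The counting intervals of SNX22, C4H1orf54 and CST3 did not overlap at d14. At d21, with 17 dividing members, those of SNX22 and C4H1orf54 overlapped, and CST3 was higher in dividing members. The difference between the ages was not tested.

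Few members showed the maturation genes CCR7, LAMP3 and FSCN1. Others of the maturation list were more widespread, with a UMI of CD86 in 71.8% of members, CD40 in 53.4% and CD83 in 46.1%. At least 2 UMIs of CCR7, LAMP3 and FSCN1, which dendritic cells switch on before they leave for lymph nodes, were found in 31 of 425 members (7.29%, 5.01 to 10.2), against 25.7% of the SIRPA+FCER1A gate and 10.4% of the C1Q gate. They were 2 of 28 at d1, 0 of 13 at d7, 18 of 296 (6.08%, 3.64 to 9.44) at d14 and 11 of 86 (12.8%, 6.56 to 21.7) at d21, and the last intervals overlapped. At d14 the 18 cells had levels of 0.546 for the checkpoint ligand CD274 and 0.739 for the NF-kB factor RELB. The other members had 0.174 and 0.286. CD40 was at 1.09 against 0.90, CD83 at 0.900 against 0.872, CD86 at 1.74 against 1.58 and BIRC3 at 1.61 against 1.42. The counting intervals of CD40, CD83, CD86 and BIRC3 overlapped. In the 18 cells the levels of XCR1 (3.12 against 5.19) and CD74 (162 against 223) were lower. The cell cycle gene STMN1 was at 4.50 against 2.33. At d21 the 11 cells had XCR1 at 3.48 against 5.40, CD74 at 130 against 169 and STMN1 at 5.42 against 2.44, and the intervals of CD274 and RELB overlapped those of the other members. CCL22, a chemokine of mature dendritic cells, was at 0 UMIs in all members. Of 11 tested maturation genes against the SIRPA+FCER1A gate, counts near the shares of all genes (6.17% higher and 3.24% lower) passed, and 1 was higher, CD86 (log2 fold 1.44 ± 0.26, edgeR adjusted p = 0.0116), and 1 lower, MARCKSL1 (-1.54 ± 0.30, adjusted p = 0.0164). Of 16 tested against the C1Q gate 0 were higher and 4 were lower, beside 11.5% of all genes, and these were FSCN1 (-1.97), CCR7 (-1.46), MARCKSL1 (-1.38) and TNFSF9 (-1.31).

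The members of different ages were then set side by side, without a test. A gene was counted when its level, with 0.1 added, differed at least 2-fold and both ages together held at least 20 UMIs. From d7 to d14 1003 of 8966 genes (11.2%) were past 2-fold, 817 higher (9.11%) and 186 lower (2.07%), but d7 held only 13 members. From d7 to d21 the count was 704 of 5326 genes (13.2%), 576 higher (10.8%) and 128 lower (2.40%). From d14 to d21, the ages with over 50 members, it was 235 of 9343 (2.52%), 159 higher (1.70%) and 76 lower (0.813%). The counting interval of the ratio lay away from 1 for 338 of the 1003 genes, for 429 of the 704 and for 235 of the 235. This interval treats each UMI as independent and does not cover the spread between cells. It lay away from 1 also for CCL20 from d14 to d21, with 97.9% of its d21 UMIs in 1 member. The log2 ratio of CCL20 was 3.32, and 0.26 without the cell with the most CCL20 UMIs at each age. The comparisons share libraries. Of the 20 cDC1 genes counted from d14 to d21, 0 were past 2-fold in either direction. This is near the 2.52% of all genes and was not read as a result about the lineage genes. Within that limit, BATF3 was at 10.6 and 6.61 and FLT3 at 1.19 and 0.702 at d14 and d21.

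Outside the lists of other cell types, the gene that was lower at d21 than at d14 by the most was IL18BP (chr9:6586602-6596423). Its level was 7.69 at d1, 5.83 at d7, 7.86 at d14 and 0.865 at d21, and a UMI was found in 46.4%, 46.2%, 54.1% and 23.3% of members. The d21 level was 0.110 times the d14 level (counting interval 0.0854 to 0.140). In the C1Q gate the levels were 0.859, 1.32, 0.793 and 1.08, with d14 the lowest, and in the SIRPA+FCER1A gate 2.12, 0.642, 0.947 and 0.336. The d21 over d14 ratio in members lay between 0.0672 and 0.119 when the gate was changed. At d7 1 cell gave 69.3% of the IL18BP UMIs and at d21 1 cell gave 42.0%, while at d14 the largest share of 1 cell was 6.93%.

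CD83, a maturation marker, and the early response genes FOSB and NR4A2 were high at d1 and d21 and low at d7 and d14. CD83 had levels of 8.51, 0.397, 0.874 and 6.44 and its d21 level was 7.37 times the d14 level (counting interval 6.39 to 8.52). FOSB, an AP-1 factor, had levels of 5.88, 1.39, 1.18 and 8.85 in members, and of 12.9, 4.02, 1.37 and 4.98 in all other cells. In other cells d1 was thus the highest, and d7 lay close to d21. From d14 to d21 FOSB went from 1.20 to 5.84 in the C1Q gate and from 1.11 to 14.4 in the SIRPA+FCER1A gate. NR4A2, an immediate early nuclear receptor, had 7.22, 0.132, 0.573 and 3.27 and BIRC3, an NF-kB target, 6.81, 0.861, 1.43 and 4.2. From d7 to d21 NR4A2 went from 1.22 to 3.07 in all other cells, from 0.803 to 1.11 in the C1Q gate and from 2.25 to 1.41 in the SIRPA+FCER1A gate. Over the same ages CD83 went from 2.18 to 3.04 in the C1Q gate and from 1.92 to 1.16 in the SIRPA+FCER1A gate. Of 19 counted maturation genes 7 were past 2-fold higher at d21 than at d14 and 0 lower, beside 1.70% and 0.813% of all genes counted. Their median log2 difference was 0.58 against -0.03 over all genes counted.

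Of the genes of the class II route, SLA-DRB1 and the lysosomal protease LGMN were past 2-fold lower at d21 than at d14. LGMN had levels of 1.61 at d14 and 0.652 at d21. SLA-DRB1 had levels of 56.8, 89.0, 72.3 and 34.2 from d1 to d21 and 29.6, 43.6, 41.0 and 17.6 in the C1Q gate, so it was lowest at d21 among members and among C1Q cells. Of the 14 genes counted 2 were thus lower and 0 higher, beside 0.813% and 1.70% of all genes counted. Their median log2 difference was -0.48, against -0.03 over all genes counted. Interferon-response genes had their lowest sums early, with summed levels of 11.5, 14.4, 26.3 and 37.7 from d1 to d21. ISG15, a ubiquitin-like protein induced by interferon, had levels of 1.13, 2.52, 4.87 and 7.15 in members beside 1.19, 7.03, 10.5 and 11.9 in the C1Q gate. From d7 to d14 9 of 24 interferon genes were past 2-fold higher, beside 9.11% of all genes counted, and from d14 to d21 1 of 25, beside 1.70%.

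**Figure D4:**
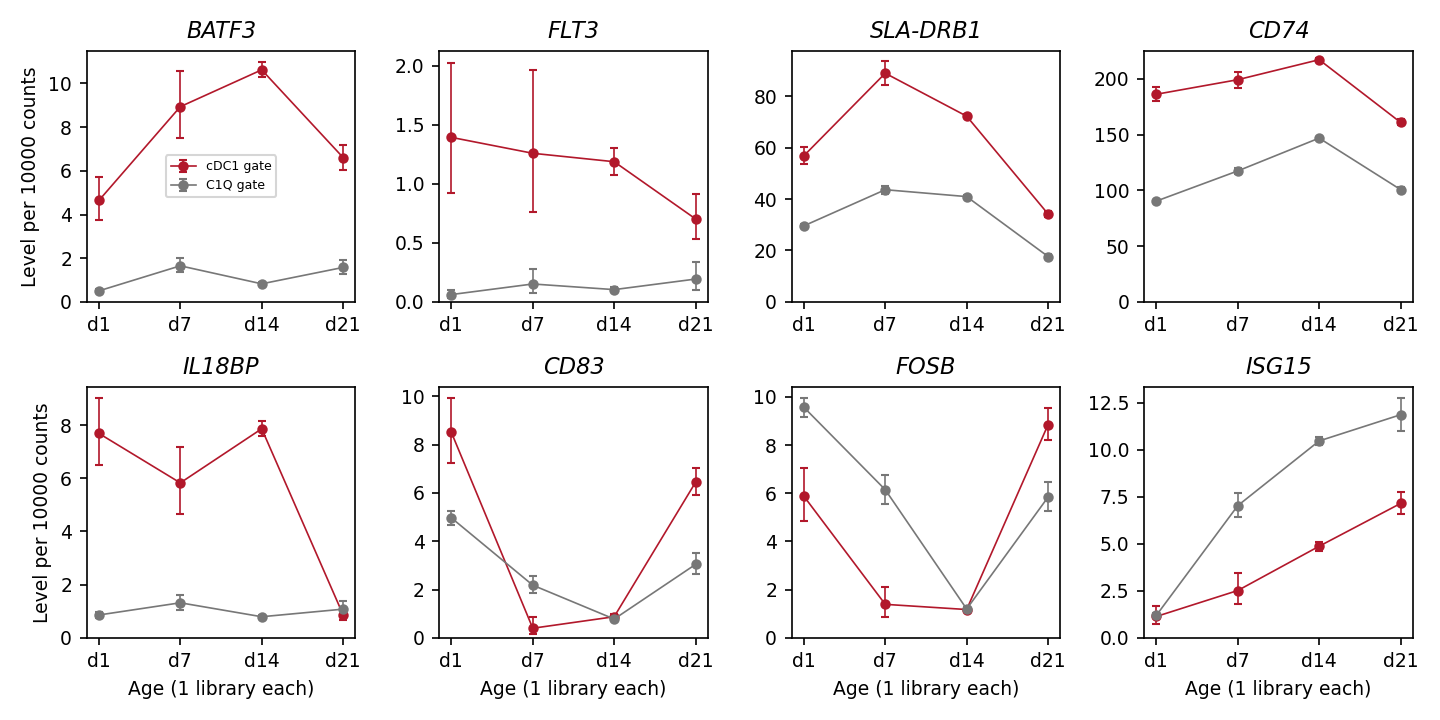
Level per 10000 counts of 8 genes in the cDC1 gate and in the C1Q gate at d1, d7, d14 and d21 (1 library each; points are summed levels and bars exact 95% Poisson intervals). IL18BP is at 7.86 at d14 and 0.865 at d21 in the cDC1 gate and at 0.793 and 1.08 in the C1Q gate, while SLA-DRB1 and CD74 are lower at d21 than at d14 in both gates.

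Several of the largest differences between ages were in marker genes of other cell types or rested on 1 cell. The source of the transcripts of other cell types was not tested. The largest differences in the higher direction from d14 to d21 were FCN2, KRT19, OLFM4, PI3, CCL20, KRT8, ZFAND2A and FOSB, and at d21 a single member held 93.4% of the FCN2 UMIs, 93.7% of OLFM4, 90.7% of PI3, 97.9% of CCL20, 80.3% of KRT19 and 79.3% of KRT8. ZFAND2A, a heat shock and stress gene, had levels of 0.928, 0.728, 0.380 and 3.72 and was higher at d21 in the C1Q gate as well. The largest differences in the lower direction were ACTA2, IL18BP, JCHAIN, TAGLN, CXCL14, ADAMDEC1, IGFBP7 and LY86, among which ACTA2, TAGLN, CXCL14, ADAMDEC1 and IGFBP7 are stromal genes and JCHAIN is a plasma cell gene with 55.7% of its d14 UMIs in 1 member. From d7 to d14 HMGCS1, OTUD1, CTSW and CXCL9 were lower, and they were higher when the cell with the most UMIs of the gene was left out at each age, HMGCS1 from -1.63 to 0.91 and CTSW from -1.48 to 2.67 on the log2 scale.

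The ligand of XCR1 was made outside the members. XCL1 had levels of 0.0669, 0.212, 1.49, 1.02 and 2.47 in the whole libraries from d0 to d21. Cells with CD3 UMIs held 73.7%, 55.1%, 85.7%, 84.2% and 91.5% of its UMIs, while they were 4.26%, 4.21%, 41.5%, 43.6% and 60.6% of cells. CRTAM, the ligand of CADM1, had levels of 0.0620, 0.0686, 0.470, 0.381 and 1.21. XCL1 was thus highest at d21 and the share of members at d14.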

How the data were processed

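Per the labels and the study's methods, cells of 5 piglets per age were mixed into 1 library with a 10x Genomics 3' kit, and the authors made UMI counts per gene and barcode with Cell Ranger 3.1.0 and STAR on susScr11, with a forced cell number. The deposited counts were used as they stood, as sparse matrices of 20648 genes. Barcodes with at least 200 genes were kept (the study's filter). The files held 15350, 14142, 10824, 16273 and 16975 barcodes from d0 to d21, with a lowest barcode of 500 UMIs. This is more than both the forced cell number and the cells that the study kept after quality control, so the kept cells here are not the study's cell set. No doublet caller was run and free RNA was not removed. No cell annotation was used here.

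The members and gene lists were chosen with earlier results of these data known. Counts were summed per library and gate and compared with edgeR 4.0.16 in R 4.3.3 (TMM, filterByExpr, quasi-likelihood test, library block, Benjamini-Hochberg adjusted p under 0.05). Gate genes were left out. The p-values measure the spread between 4 libraries, which differ in age. Shares have exact Clopper-Pearson 95% intervals and levels exact Poisson 95% intervals, where the floor for a count of 0 was 3 counts. Ages were compared as levels with a pseudocount of 0.1. Named were the 10 higher and 10 lower genes of largest log2 fold per gate comparison and the 8 largest rises and falls per pair of ages. All had a level of at least 1 in the higher sum, and mitochondrial and LOC genes were left out. In the gate comparisons, named higher genes were higher in each library used and named lower genes were higher in none. A tie was thus allowed for lower genes, as for CDC42EP5, which was at 0 in members and in the SIRPA+FCER1A gate at d7. Of each list up to 6 genes were named, 3 by level and 3 by fold. IL18BP, CD83, NR4A2 and BIRC3 in the gate and age accounts, SEC61B, IFI6, ITGB7, NFIL3 and the summed cytokine genes were picked from the lists after their values were seen. Gene positions are from the RefSeq table of Sscrofa11.1, which held 20648 of 20648 symbols. Python 3.11.15, NumPy 2.4.6, SciPy 1.17.1, pandas 2.3.3 and Matplotlib 3.10.9 were used, and DESeq2 1.42.0 as an alternative. The tests were tested on simulated data with known changes. The SIRPA+FCER1A comparison recovered 46 of 100 changes of 2-fold and 83 of 100 of 4-fold, with 3 false calls among 3088 unchanged genes. The C1Q comparison recovered 58 and 91 of 100, with 7 false calls among 6280. A gene that did not pass can thus still differ 2-fold. Alternatives changed the gate, the reference cells, the filter, the normalization, the block, the pseudocount and the libraries.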

Additional observations from a re-analysis of the deposited data

Results flagged for a closer look

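IL18BP differed in opposite directions in the cDC1 and C1Q gates between d14 and d21, with a log2 difference of -3.04 in the cDC1 gate and 0.40 in the C1Q gate. In the SIRPA+FCER1A gate it was -1.26 and in all other cells -0.44. JCHAIN, a plasma cell gene, did so too, with -2.92 in the cDC1 gate and 0.51 in the C1Q gate, beside -1.03 in the SIRPA+FCER1A gate and -0.75 in all other cells. The differences between the gates were not tested, since each age had 1 library.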

How the results depend on the processing

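The log2 ratio of the d21 over the d0 share was 5.28, between 4.10 and 5.71 under the 500-gene minimum, the mitochondrial limit of 20%, XCR1 alone and the removal of members with markers of other types, and 2.59 among SLA-DRA+ MS4A1- cells. It could not be formed with 3 UMIs, with FLT3 added, with CLEC9A or after thinning, which left 0 members at d0. Against the SIRPA+FCER1A gate 331 genes passed, 1226 without the filter, 173 without the library block, 169 without reference cells above 50000 UMIs, 122 without those with markers of other types, and 71 (without d14) to 525 (without d7) with 1 library left out. Without d21 90 passed. DESeq2 called 314. Against the C1Q gate 1241 passed, 2008 without the filter, 762 without the block, 943 with DESeq2, and 453 (without d14) to 1392 (without d1) with 1 library left out. From d7 to d21 704 genes were past 2-fold, 70 with a pseudocount of 1, 1108 with a minimum of 10 UMIs and 266 with 50. From d14 to d21 235 were, 427 with FLT3 added, 858 with a pseudocount of 0.01 and 43 with a pseudocount of 1. The cause was not tested. Of the named genes' alternative values, 369 of the SIRPA+FCER1A comparison and 440 of the C1Q comparison kept their direction and their result at the threshold. The 369 include 16 values of FLT3, which did not pass in the main comparison or in any alternative. In the 2 comparisons 26 and 1 (ANPEP) lost the call, and LGALS4 reversed to 0.47 without reference cells with markers of other types. The gates needing both XCR1 and CLEC9A, CLEC9A alone, or FLT3 in the reference cells held too few cells and were not run. The d21-over-d14 comparison, the thinning to 5000, the SLA-DRA+ denominator and the changed reference cells were chosen after seeing the data. The d0 and d7 libraries gave 2 and 13 members.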
